A study of Mus musculus with 2 samples.

Results

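The cells described here are hepatic stellate cells, picked out of a chromatin accessibility experiment on mouse liver by the fragments they carried over stellate marker genes. Nuclei were profiled by droplet-based single-nucleus ATAC-seq (10x Genomics), in which a transposase cuts and tags open DNA, so that each sequenced fragment marks an accessible stretch. The 2 samples came from a male Spta sph/sph mouse and a male Spta wt/wt littermate, 8 to 10 weeks old and untreated. Spta is the label's name for the spectrin alpha locus, and both livers were digested with collagenase, freed of hepatocytes by low-speed spins and enriched with F4/80 antibody beads, a selection for macrophages. There was 1 library per genotype and no replicate. The deposited barcodes end in 1 or 2, and no label ties either ending to a genotype, so the values below belong to library 1 and library 2 and compare no genotypes. A cell was called stellate when it was a called cell with at least 1000 fragments in peaks, held at least 4 fragments over the gene bodies, with 2 kb on each side, of Dcn, Colec11, Rgs5, Des, Bmp10, Heyl, Agtr1a and Foxf1, and held at least 2 times as many of these as of fragments over 8 Kupffer or 8 endothelial marker genes. By this rule 82 of 1175 cells were stellate, 59 of 610 in library 1 and 23 of 565 in library 2. Kupffer and endothelial cells, named by the same rule with their own markers, numbered 448 and 246 and served as the comparison.

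Stellate cells are the pericytes of the liver sinusoid. They lie between endothelium and hepatocytes, store most of the body's vitamin A as retinyl esters in lipid droplets, wrap the sinusoid with contractile processes, and turn into matrix-producing myofibroblasts when the liver is injured. They also secrete BMP9 (Gdf2), BMP10, HGF and CXCL12, signals read by neighbouring endothelial cells, hepatocytes and macrophages.

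The share of stellate cells was 9.67% of library 1 (exact 95% binomial interval 7.44 to 12.3%) and 4.07% of library 2 (2.6 to 6.05%). With every cell thinned to 5000 fragments before the rule was applied, the shares were 7.18% of 529 cells and 2.94% of 511, with 81 of 610 and 54 of 565 shallower cells left out. The bead selection and the digestion can set these shares. The members held a median of 11 stellate marker fragments in library 1 (range 4 to 33) and 27 in library 2 (4 to 52). Their Kupffer marker fragments had a median of 0 and 1, and their endothelial marker fragments a median of 1 and 2, in library 1 and library 2. At the lower edge, 6 members of library 1 and 1 of library 2 held exactly 4 stellate marker fragments, and 1 and 4 cells just outside held 3. A further 15 and 32 cells held 4 or more but fell short of 2 times the Kupffer or endothelial number. These last cells had a median of 29309 fragments in library 1 and 49604 in library 2, against 11804 and 25602 in the members.

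**Figure D1:**
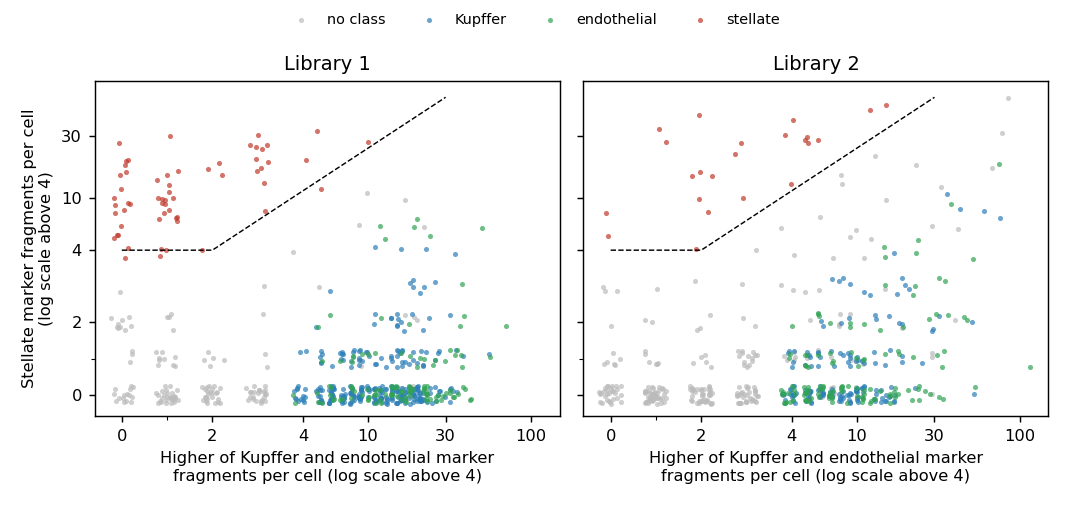
Stellate marker fragments per cell (vertical axis) against the higher of Kupffer and endothelial marker fragments (horizontal axis), with 1 point per cell, colours for the 4 classes, points spread slightly and axes linear up to 4 and logarithmic above. The 59 and 23 stellate cells lie on or above the dashed line of the rule, and the cells between the classes are more frequent in library 2.

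The stellate fragments summed to 796080 in library 1 and 679203 in library 2, and no called barcode occurred in both libraries. The median cell had 67.7% of its fragments in peaks in library 1 and 54.1% in library 2. One cell held 5.8% of the stellate fragments of library 1, whereas the deepest cell of library 2 held 19.1%. Pile-ups, defined as 20 kb bins in which 1 cell held at least 10 fragments and at least 10 times its expected number, took 0.571% of the stellate fragments of library 1 and 11.8% of those of library 2. Kupffer (0.42% and 10.7%) and endothelial cells (1.16% and 12.6%) showed the same gap between libraries. An excess of positions covered by more than 2 fragments, a possible mark of 2 cells in 1 droplet, was found in 5 and 4 of the members. The excess was judged against the mean cell of the library, so deep cells and cells with pile-ups can be marked too. The marked members were kept.

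The 8 genes of the rule are given as a description only, since they chose the cells. Levels are fragments over a gene scaled to the fragments of the class (counts per 1000000, CPM). Agtr1a, the angiotensin II receptor, stood at 268 CPM in stellate cells of library 1 and 194 CPM in library 2, and Rgs5, a pericyte regulator of G-protein signalling, at 141 and 112 CPM. Heyl, a Notch target, had 124 and 86.9 CPM, Bmp10 118 and 66.3 CPM, and the lectin gene Colec11 102 and 122 CPM. One cell gave 62.7% of the Colec11 fragments of library 2. Dcn, which encodes the matrix proteoglycan decorin, had 98 and 115 CPM, the transcription factor gene Foxf1 80.4 and 78 CPM, and the intermediate filament gene Des 66.6 and 23.6 CPM. The highest level of any of the 8 in Kupffer or endothelial cells was the 11.6 CPM of Agtr1a in endothelial cells of library 1.

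The label was checked against 20 further stellate genes that the rule did not use. Per cell, these genes held between 881 and 6953 CPM in stellate cells of library 1, with a median of 3749 CPM, against medians of 551 CPM in Kupffer and 632 CPM in endothelial cells. In library 2 the stellate cells ran from 430 to 4744 CPM with a median of 2775 CPM, against 717 and 760 CPM. In library 1, 58 of the 59 members exceeded the level that 95% of Kupffer cells stayed under, and 57 exceeded that of endothelial cells. In library 2 the numbers were 18 and 10 of 23, and 21 of 23 lay above the median cell of both other classes. Nearly all members of library 1 stood apart by these genes, and the classes overlapped more in library 2.

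**Figure D2:**
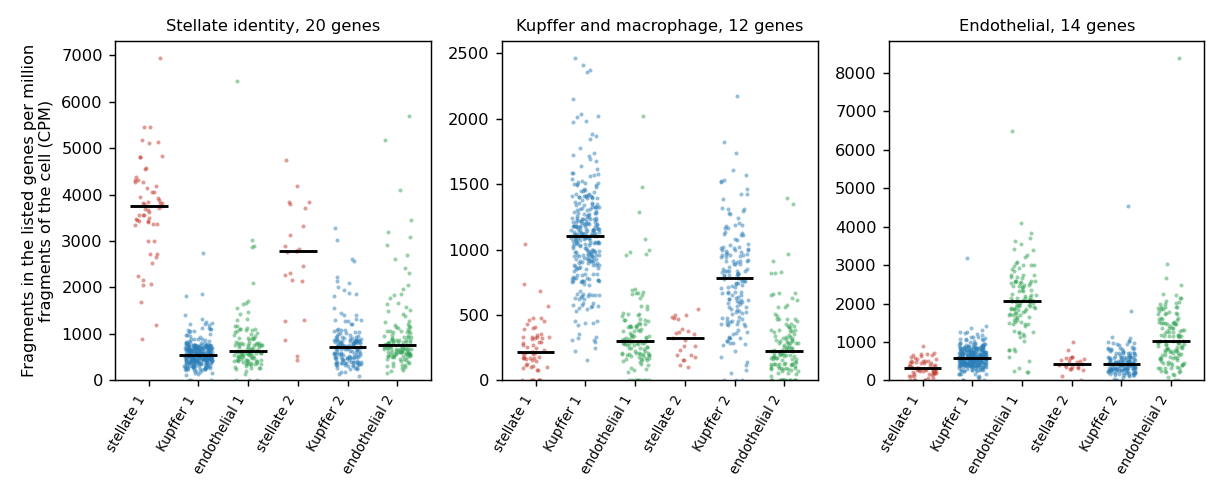
Level per cell (CPM of the cell's own fragments) of 3 gene lists not used by the rule, with 1 point per cell and a black bar at the median, for the 3 classes in library 1 and library 2. Stellate cells have medians of 3749 and 2775 CPM for the stellate genes. For the macrophage and endothelial genes their medians lie below those of the class the genes mark, while single cells overlap.

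Ratios between classes were formed within a library, as the log2 ratio of CPM with 0.5 added to both counts, relative to the median gene. Those of promoters and of 1 kb tiles, given further below, were not taken relative to the median gene. A gene was called past 2-fold at a log2 ratio of 1 or -1. For each gene the smaller of its ratios to Kupffer and to endothelial cells is called the lower ratio. It is the excess over whichever class comes closer. Intervals are exact 95% conditional binomial intervals and, like those above, cover counting error only. With 1 library per group there is no test and no p-value.

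Of the 20 stellate identity genes, 16 of 20 tested were past 2-fold above both other classes in library 1, where 6.29% of all genes tested were (914 of 14529). In library 2 the count was 12 of 19, against 8.64% of all genes (1332 of 15423). The median lower ratio was 2.39 in library 1 and 1.59 in library 2, against -0.17 and -0.15 over all genes. Sod3, the secreted superoxide dismutase, had 61.6 CPM in stellate cells of library 1 and 38.3 CPM in library 2, against 2.45 to 5.83 CPM in the other classes, and lower ratios of 4.15 and 2.86. Lrat, the acyltransferase that makes retinyl esters for storage, had 47.7 and 22.1 CPM against at most 6.73 CPM elsewhere, with lower ratios of 2.88 and 2.85. Gucy1a1, a subunit of the nitric oxide receptor guanylate cyclase, stood at 136 and 72.1 CPM, with lower ratios of 3.85 and 1.78. Colec10, partner of Colec11 in a circulating lectin, went from 90.4 CPM in library 1 to 23.6 CPM in library 2, with lower ratios of 3.27 and 1.43. Fcna (0.51 and -0.16) and Prelp (0.37 and 0.95) had the smallest lower ratios of this list in library 1. Fcna was open in Kupffer cells at 44.8 and 36 CPM, and Prelp in endothelial cells at 64.8 and 26.6 CPM.

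Against Kupffer cells alone, 13.6% of the genes tested were past 2-fold higher in stellate cells of library 1 and 13.8% lower, and in library 2 the shares were 15.5% and 12.8%. Against endothelial cells alone they were 10.1% and 8.57% in library 1 and 12.2% and 11.4% in library 2. Over the whole genome, 914 genes were past 2-fold above both other classes in library 1, and 530 below both (3.65% of those tested). In library 2 the counts were 1332 and 891 (5.78%). Of the 14229 genes tested in both libraries, 853 (5.99%) were above both classes in library 1, and 345 of these (40.4%) were also past 2-fold in library 2, where 7.64% of all 14229 were. The 345 genes are 31.7% of the 1087 genes so called in library 2. The 15 leading genes were ranked by the lower ratio in the library where it was smaller. At least 20 stellate fragments in library 1 and 8 in library 2 were required. The 15 included Hand2, Gdf2, Kcne4, Msc, Bmp4, Ccdc105, Afap1l2, Rgs4, Tnfrsf11b, Lama1, Arhgap42, Ascl3, Sod3 and Lrat. Bmp4 and Ascl3 had too few fragments to be among the genes tested in library 2. The lower ratios of the 15, which chose them, lay between 2.88 and 4.65 for library 1 and between 2.85 and 4.98 for library 2.

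The leading genes Gdf2 and Bmp4 encode secreted ligands. Gdf2 encodes BMP9, a factor that keeps sinusoidal endothelium quiescent and raises hepcidin in hepatocytes. It had 94 fragments in stellate cells of library 1 (118 CPM), from 37 cells, and 54 in library 2 (79.5 CPM), from 17 cells. Kupffer cells, with several times as many fragments in all, had 1.47 and 1.14 CPM, and endothelial cells 4.89 and 5.47 CPM. Bmp4, another ligand of the same family, had 45.2 and 20.6 CPM, with 0.571 to 2.57 CPM in the other classes. Among the decoys and matrix components, Tnfrsf11b, which encodes osteoprotegerin, had 66.6 and 36.8 CPM, and the laminin chain gene Lama1 172 and 160 CPM. In each of these genes both libraries put stellate cells above both other classes, which their choice by the lower ratio in both libraries required.

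The leading transcription factor genes were Hand2, Msc and Ascl3. Hand2, a basic helix-loop-helix factor of lateral mesoderm, had 46.5 and 35.3 CPM in stellate cells. In Kupffer cells it had 0.918 CPM in library 1 and no fragment in library 2, where 3 counts would be 0.856 CPM, and endothelial cells had 1.83 and 1.09 CPM. Msc, musculin, had 38.9 and 28 CPM against 1.1 to 3.06 CPM, and Ascl3 38.9 and 22.1 CPM against 0.856 to 3.67 CPM. Rgs4, a regulator of G-protein signalling, had 35.2 and 55.9 CPM, and Kcne4, a potassium channel subunit, 32.7 and 39.8 CPM. Per kb of window, Gdf2 was the most open of the 15 in both libraries, at 11.6 and 7.83 CPM per kb, and Ccdc105 the least open, at 1.2 and 1.15 CPM per kb. The long genes Arhgap42, which encodes a GTPase-activating protein, and Afap1l2 had 474 and 284 CPM in library 1 but only 1.89 and 2.36 CPM per kb.

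The 250 bases before 7 gene starts are shown because stellate fragments outnumbered those of the other classes there. They are the starts with the most stellate fragments in library 1 among the named genes whose promoter is in the RefSeq table used here (GRCm38.p6), kept where stellate cells exceeded both other classes at least 4-fold, a condition on the same fragments that was added after values were seen. The window is not always where a locus is most open: in Colec11 it held 19 of the 81 stellate fragments of library 1, and the fullest tile of Rgs5 lay 29999 bp into the gene. Gdf2, Hand2 and Tcf21 were not used to choose the cells, whereas Colec11, Des, Bmp10 and Rgs5 were. Each sequence runs 5' to 3' on the strand of its gene and ends at the base before the start. Capitals mark matches, on either strand, to motifs searched: GATAA (GATA factors), TAATTA (LIM homeodomain) and CAGCTG (an E-box of the TCF21 type). CATTCC (TEAD), TGANTCA (AP-1), GTAAACA (forkhead), AGGTCA (an NR2F site) and the CArG box were also searched, and these letters are in none of the 7 windows. In Hand2 the TAATTA match and a GATAA match on the opposite strand overlap and form 1 run of capitals.
Gdf2: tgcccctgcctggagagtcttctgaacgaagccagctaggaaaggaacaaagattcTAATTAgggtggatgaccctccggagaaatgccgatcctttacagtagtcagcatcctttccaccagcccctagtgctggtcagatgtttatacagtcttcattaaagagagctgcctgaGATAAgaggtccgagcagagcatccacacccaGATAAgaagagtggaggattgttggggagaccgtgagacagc
Hand2: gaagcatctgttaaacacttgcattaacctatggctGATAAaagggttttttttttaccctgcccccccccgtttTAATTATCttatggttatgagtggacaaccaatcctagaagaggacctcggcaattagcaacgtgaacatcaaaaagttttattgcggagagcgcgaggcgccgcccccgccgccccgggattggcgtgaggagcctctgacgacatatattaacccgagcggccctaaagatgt
Colec11: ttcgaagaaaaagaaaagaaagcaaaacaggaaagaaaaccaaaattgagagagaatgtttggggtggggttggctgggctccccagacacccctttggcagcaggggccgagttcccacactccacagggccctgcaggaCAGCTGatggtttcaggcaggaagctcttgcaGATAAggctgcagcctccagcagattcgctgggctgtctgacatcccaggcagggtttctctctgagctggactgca
Tcf21: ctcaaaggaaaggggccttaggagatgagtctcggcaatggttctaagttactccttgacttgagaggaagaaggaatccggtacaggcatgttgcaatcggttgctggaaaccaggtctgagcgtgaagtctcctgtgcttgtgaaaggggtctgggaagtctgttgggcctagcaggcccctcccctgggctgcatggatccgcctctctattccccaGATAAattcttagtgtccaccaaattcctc
Des: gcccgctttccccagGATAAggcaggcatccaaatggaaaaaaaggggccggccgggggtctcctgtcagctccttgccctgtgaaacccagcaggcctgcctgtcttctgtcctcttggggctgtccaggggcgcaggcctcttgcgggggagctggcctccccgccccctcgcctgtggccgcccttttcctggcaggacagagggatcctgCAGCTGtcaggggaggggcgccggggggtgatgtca
Bmp10: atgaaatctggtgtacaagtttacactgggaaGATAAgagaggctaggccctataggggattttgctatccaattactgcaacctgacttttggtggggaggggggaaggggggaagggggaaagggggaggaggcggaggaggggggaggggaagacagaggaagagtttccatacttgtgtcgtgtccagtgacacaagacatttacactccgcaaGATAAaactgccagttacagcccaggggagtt
Rgs5: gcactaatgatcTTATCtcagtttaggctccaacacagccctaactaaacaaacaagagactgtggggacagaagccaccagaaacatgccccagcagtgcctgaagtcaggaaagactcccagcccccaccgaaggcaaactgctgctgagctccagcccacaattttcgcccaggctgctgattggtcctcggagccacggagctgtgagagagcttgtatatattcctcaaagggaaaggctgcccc

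These stretches lie upstream of their genes, Gdf2 at chr14:33940789-33941038 (plus strand), Hand2 at chr8:57320733-57320982 (plus strand), Colec11 at chr12:28623331-28623580 (minus strand), Tcf21 at chr10:22820144-22820393 (minus strand), Des at chr1:75360042-75360291 (plus strand), Bmp10 at chr6:87428744-87428993 (plus strand) and Rgs5 at chr1:169655251-169655500 (plus strand). In the Gdf2 stretch 20 stellate fragments of library 1 and 11 of library 2 were found, against 0 and 0 in Kupffer and 0 and 1 in endothelial cells. Hand2 had 20 and 11 stellate fragments, 0 and 0 Kupffer fragments, and 1 and 0 endothelial fragments. Tcf21 had 18 and 3 stellate fragments, 1 and 0 Kupffer and 0 and 1 endothelial. Kupffer cells had 5449123 and 3503156 fragments in all, so that 0 fragments there allow up to 0.551 and 0.856 CPM (3 counts), whereas Gdf2 and Hand2 each had 25.1 CPM (exact 95% Poisson interval 15.3 to 38.8) in stellate cells of library 1 and 16.2 CPM (8.08 to 29) in library 2. Of the genes that chose the cells, Bmp10 had 15 and 15 stellate fragments with none in the other 4 groups, Des 17 and 6 with 1 elsewhere, Rgs5 15 and 12 with 2 elsewhere, and Colec11 19 and 6 with 6 elsewhere.

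**Figure D3:**
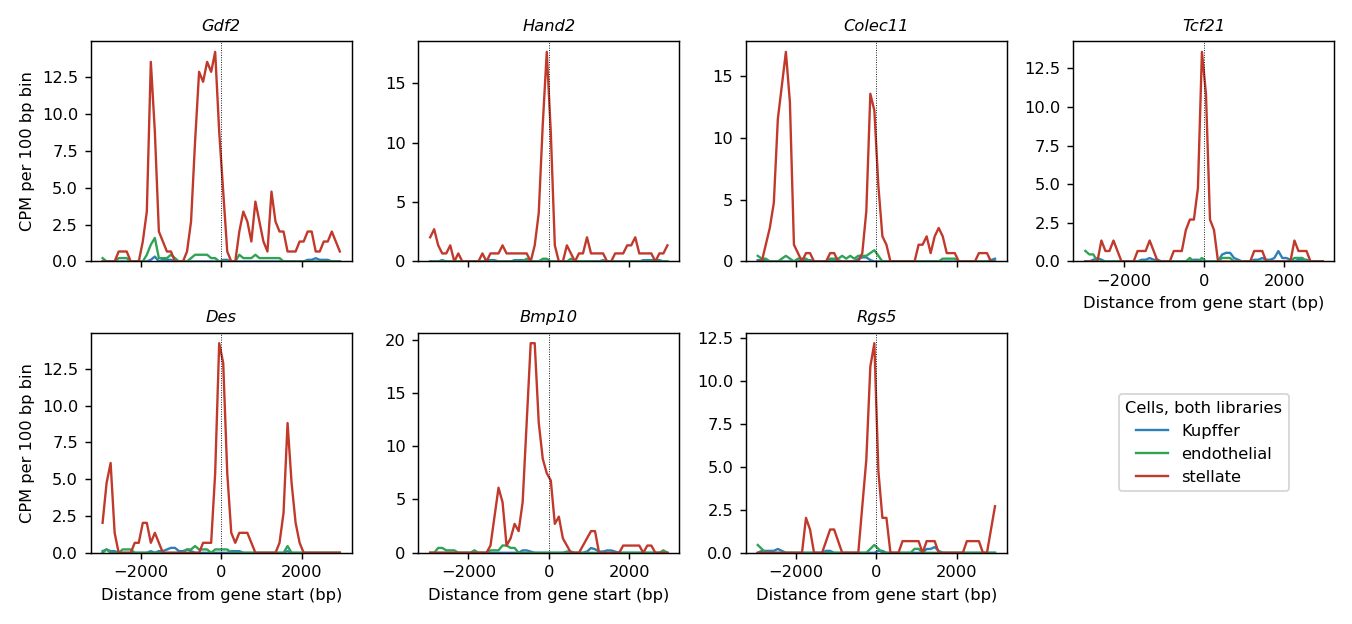
Fragments of the class scaled to CPM in 100 bp bins against distance from the gene start, in the direction of transcription, for the 7 genes, with the cells of both libraries summed by class. Stellate cells peak at 12.2 to 19.7 CPM while the highest bin of either other class is 1.6 CPM. The highest stellate bin lies upstream of the bins next to the start in Colec11, Bmp10 and Gdf2 (bin centres at -2250, -450 and -150 bp).

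All 7 windows held GATAA, which 21% of 17492 promoter windows of this length hold. The match was not general to stellate promoters. Of 115 promoters with at least 8 stellate fragments and 4-fold above both other classes in library 1, 20 held GATAA (17.4%), as did 31 of the 252 promoters (12.3%) of the 345 genes past 2-fold in both libraries. The median GC content was 63.2% and 60.2% in these sets and 55.2% over all. CAGCTG was in 18.3% and 16.7% of the 2 sets and in 11.6% of all promoters, and TAATTA in 1.74% and 2.38% against 4.45%. Of the 115 promoters, 77 (67%) had at least 3 stellate fragments and were past 2-fold above both other classes in library 2, as were 2.9% of all 17492. The 115 include Colec11, Des, Bmp10 and Rgs5, which chose the cells in both libraries. Only 9267 of the 17492 had any stellate fragment in library 2, against 109 of the 115, so the 2 shares are not on equal terms. These shares are descriptions, and a match is not a bound site.

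The other lists give the stellate cells by role. Most named members have the largest or smallest lower ratios of their list in library 1, which chose them, and library 2 did not enter that choice. Each count of genes past 2-fold above both classes stands against 6.29% of all genes tested in library 1 and 8.64% in library 2.

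**Figure D4:**
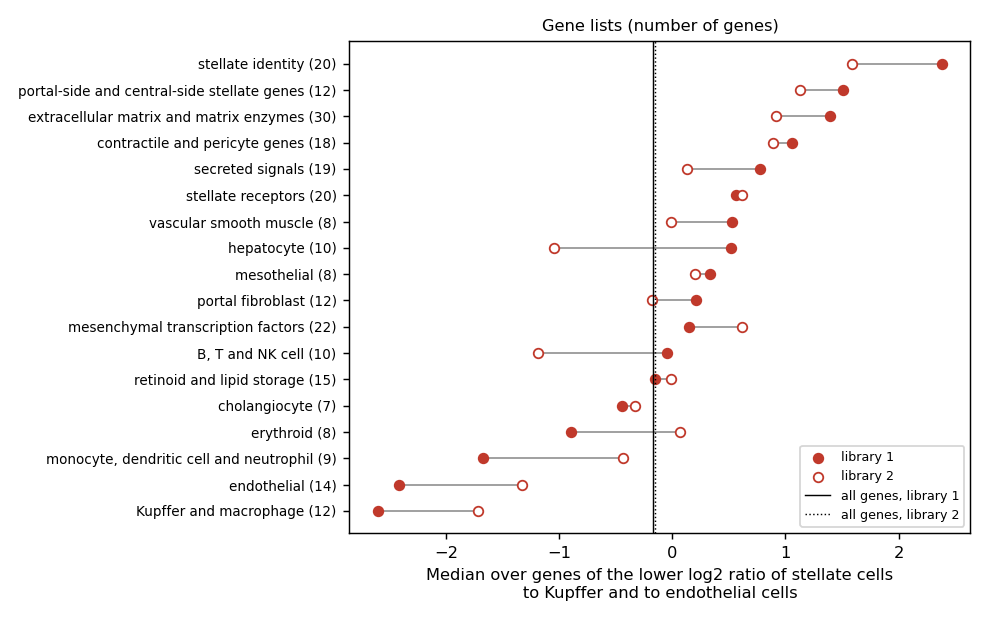
Median over the genes of each of 18 lists of the lower log2 ratio, the smaller of stellate over Kupffer and stellate over endothelial, with filled points for library 1 and open points for library 2. Vertical lines at -0.17 and -0.15 give the median of all genes; the stellate identity list is highest at 2.39 and 1.59, and the Kupffer and macrophage list lowest at -2.61 and -1.71.

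Of the secreted signals, 9 of 18 tested were past 2-fold above both classes in library 1 and 7 of 19 in library 2. Besides Gdf2 these include Bmp5 (143 and 133 CPM, lower ratios 3.59 and 2.73) and Il34, a ligand of the macrophage receptor CSF1R (151 and 159 CPM, lower ratios 1.68 and 2.3). Csf1, the other CSF1R ligand, had 106 and 57.4 CPM with lower ratios of 1.07 and 1.06. Cxcl12, a chemokine for CXCR4-bearing cells, had 122 and 42.7 CPM against 4.01 to 10.8 CPM, with lower ratios of 3.66 and 2.15. Igf1 (-1.24 and 0.0016) and Gas6 (-1.87 and -0.94) had the smallest lower ratios in library 1. Igf1 was most open in Kupffer cells and Gas6 in endothelial cells.

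Of the receptors, 7 of 20 were past 2-fold above both classes in each library. Ednra, the endothelin A receptor that drives contraction, had 137 and 119 CPM with lower ratios of 3.55 and 1.59. Fgfr2 had 206 and 169 CPM (3.47 and 1.46), and Ngfr, the p75 neurotrophin receptor, 71.6 and 33.9 CPM (2.8 and 0.51). Vipr1, a receptor for vasoactive intestinal peptide, had 239 and 133 CPM (2.62 and 2.93). Pdgfrb, a receptor long used to mark stellate cells, had 131 and 109 CPM with lower ratios of 1.12 and 0.88, its Kupffer level being 64.6 and 66.8 CPM. Lpar1 (-0.19 and 0.14) and Tgfbr2 (-0.68 and -0.32), a subunit of the TGF-beta receptor, had the smallest lower ratios in library 1. Their Kupffer levels were above the stellate levels in both libraries, where levels, unlike ratios, are not relative to the median gene.

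Matrix genes were past 2-fold above both classes in 15 of 26 tested in library 1 and 13 of 26 in library 2, with median lower ratios of 1.39 and 0.91. The basement membrane laminin gene Lamb1 had 157 and 107 CPM (lower ratios 4.15 and 1.2). Its endothelial level was 9.17 CPM in library 1 and 52.5 CPM in library 2. Adamts2, which trims procollagen, had 276 and 197 CPM (3.55 and 1.9), with 41.8% of its library 2 fragments from 1 cell, and the elastin and collagen cross-linker gene Loxl1 40.2 and 36.8 CPM (2.91 and 2.64). The fibrillar collagen genes Col1a1, Col1a2 and Col3a1 had 31.4, 22.6 and 32.7 CPM in library 1 and 38.3, 53 and 25 CPM in library 2, with lower ratios between 0.91 and 3.42. Col6a1 had 20.1 and 16.2 CPM (2.96 and 0.27). Hspg2 (-0.65 and 0.21) and Timp3 (-0.67 and 0.79) were more open in endothelial cells of library 1 than in stellate cells.

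Contractile and pericyte genes were past 2-fold in 8 of 16 and 7 of 17. Abcc9, a subunit of the pericyte potassium channel, had 167 and 174 CPM with lower ratios of 2.46 and 2.37, and its partner Kcnj8 had 44 and 67.7 CPM (1.52 and 1.64). Kcnmb1 (15.1 and 26.5 CPM, 2.56 and 2.32) rested on 8 and 3 cells, and its library 2 ratio was -1.87 with the rule applied to thinned cells. Myl9, a smooth muscle myosin light chain, had lower ratios of 1.76 and -0.39. Acta2, the smooth muscle actin gene that marks activated stellate cells, had 8 and 6 fragments in all (10 and 8.83 CPM), below the Kupffer (38 and 26 CPM) and endothelial levels (20.2 and 10.9 CPM). Cnn1, calponin, had 1 fragment in library 1 and 0 in library 2. Notch3 (-0.1 and 0.43) and Gja4 (-0.83 and 0.45) were not past 2-fold above both classes in either library.

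Of the mesenchymal transcription factors, 7 of 19 and 5 of 19 were past 2-fold above both. Lhx2, a LIM homeodomain factor that restrains stellate activation, had 134 and 72.1 CPM with lower ratios of 2.77 and 2.09. Hand2 led with 4.56 and 4.98, followed in library 1 by Tcf21, which had 38.9 and 10.3 CPM (3.72 and 2.2, with 7 fragments in library 2), and Foxs1 (2.89 and 1.36). Gata6 had 56.5 and 44.2 CPM (2.22 and 1.91). Gata4 had 175 and 103 CPM, and endothelial cells had 176 and 80.6 CPM, so it was not past 2-fold above both. Nr2f2 (95.5 and 42.7 CPM) and Tead1 (215 and 197 CPM) were likewise past 2-fold over Kupffer but not over endothelial cells in both libraries. Mef2c (-0.97 and -0.0034) and Ebf2 (-0.84 and -0.56) had the smallest lower ratios in library 1.

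The retinoid and lipid storage list had 3 of 15 genes past 2-fold above both classes in library 1 and 0 of 15 in library 2, against 6.29% and 8.64% of all genes, with median lower ratios of -0.15 and -0.015. The library 2 count was 2 of 13 without cells marked as doublets and 1 of 14 with pile-ups masked. Lrat belongs to the identity list and is not counted here. Aldh1a1, a retinaldehyde dehydrogenase, had 137 CPM in library 1 and 26.5 CPM in library 2 (lower ratios 3.3 and -0.49). Its library 2 ratio ran from -1.49 without cells marked as doublets to 4.07 within 1 kb of the start, so its side of 2-fold in library 2 depends on the processing. Bco1, which cleaves beta-carotene, had 64.1 and 29.4 CPM (1.76 and 0.66). Cyp26b1 (-1.47 and 0.61) and Dhrs3 (-0.97 and -0.05) were more open in endothelial cells of library 1. The other 12 genes of the list were not past 2-fold above both classes in library 1.

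Genes known to differ between stellate cells at the portal and the central side of the lobule were past 2-fold above both classes in 9 of 10 tested in library 1 and 7 of 11 in library 2. Genes named for either side were open: of the portal-side genes Ngfr, Il34 and Igfbp3 had 71.6, 151 and 47.7 CPM in library 1, and of the central-side genes Adamtsl2, Rspo3 and Loxl1 had 180, 123 and 40.2 CPM. In library 2 Igfbp3 had 4.42 CPM and the other 5 between 33.9 and 159 CPM. Adamtsl2 also had 93 and 38.6 CPM in endothelial cells, with lower ratios of 1.05 and 2.05, and Dkk3 had lower ratios of -0.19 and 1.01. Without centring on the median gene, 7 of 10 and 6 of 11 genes of the list were past 2-fold above both classes.

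Markers of other cells were read in the members in the same way. Of 12 portal fibroblast genes, 3 of 10 tested were past 2-fold above both classes in library 1 and 1 of 8 in library 2, the latter near the 8.64% of all genes. Their summed level was 325 and 244 CPM in stellate cells, against 170 and 190 in Kupffer and 237 and 189 in endothelial cells, and Thy1 had 3 and 1 fragments. Eln, elastin, had 54 and 47.1 CPM (lower ratios 1.35 and 0.81), Gsn lower ratios of 1.2 and 0.6, and Dpt 1.53 and -1.8 with 12 and 1 fragments. Of 8 vascular smooth muscle genes, 2 of 7 and 0 of 6 were past 2-fold. Of 8 mesothelial genes, 0 of 5 and 2 of 5 were. In library 2, 1 cell gave 37.2% of the stellate fragments of the mesothelial list. The mesothelial count there was 0 of 4 without the deepest cell, 0 of 2 without cells marked as doublets and 2 of 4 with pile-ups masked. The macrophage list summed to 271 and 283 CPM in stellate cells, against 1102 and 749 CPM in Kupffer cells, and the endothelial list to 348 and 431 CPM, against 1957 and 1039 CPM in endothelial cells. The 10 hepatocyte genes summed to 226 CPM in stellate cells of library 1, where 1 cell gave 52.2% of the fragments and 18 of 59 cells had none, and to 76.6 CPM in library 2, where Fgb, Tat and Serpina1a had none. In Kupffer cells the hepatocyte genes summed to 64.2 and 100.2 CPM and in endothelial cells to 155 and 98.4 CPM. Of the hepatocyte genes 3 of 9 tested were past 2-fold above both classes in library 1 and 1 of 3 in library 2, against 6.29% and 8.64% of all genes, and in library 1 the count was 3 of 9 without the deepest cell and 1 of 3 without cells marked as doublets. All 14 fragments of Fgb in library 1 came from 1 cell, as did 73.8% of those of Cps1. The cholangiocyte list had 36.4 and 147 CPM in stellate cells, 42.9 and 76.8 in Kupffer and 46.5 and 112 in endothelial cells. In library 2, 1 cell gave 59% of its stellate fragments. Past 2-fold above both classes were 0 of 2 and 1 of 3 of its genes. The B, T and NK cell list had 0 of 4 in each library. The monocyte, dendritic cell and neutrophil list had 0 of 3 and 1 of 4, and the erythroid list 0 of 3 and 1 of 5. Single cells gave 47.3% and 51.5% of their stellate fragments in library 2.

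Most regions more open in stellate cells than in both other classes lay far from gene starts. The genome was cut into 1 kb tiles, and 3637 tiles (10.6% of 34380 tested) had at least 10 stellate fragments from at least 5 cells and stood at least 4-fold above both other classes in library 1. Of these, 79.7% lay beyond 10 kb of the nearest gene start and 6.08% within 1 kb, against 42.3% and 39.2% of all tiles tested. Each protein-coding gene was given 1 start, so other promoters of a gene and noncoding genes did not count as starts. For 17492 of the 21887 genes the start came from the RefSeq promoters, and for the rest it was the gene end with more fragments. Tiles chosen for Kupffer and endothelial cells by the same rule, with the minimum scaled to depth, numbered 3574 and 2103, and 70.6% and 74.4% of them lay beyond 10 kb. In library 2, which did not enter the choice, 2556 of the 3637 stellate tiles (70.3%) had at least 3 stellate fragments and were past 2-fold above both classes, as were 15% of all tiles tested.

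**Figure D5:**
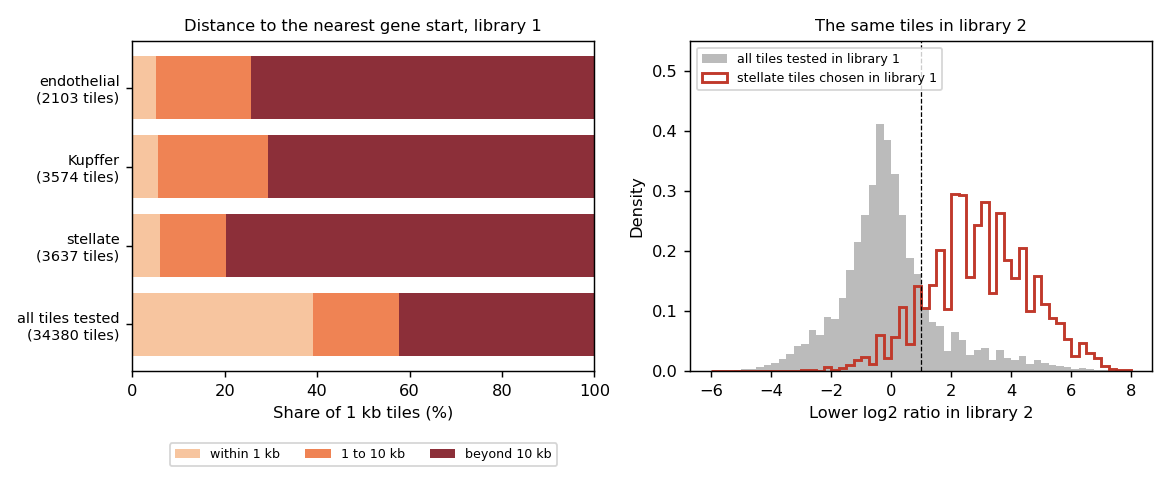
Left, share of 1 kb tiles by distance to the nearest gene start for all tiles tested and for tiles at least 4-fold above the other classes in library 1; right, density of the lower log2 ratio in library 2 for the stellate tiles and for all tiles, with a dashed line at 2-fold. The stellate tiles lie 79.7% beyond 10 kb of a start, and their median lower ratio in library 2 is 2.9 against -0.22 for all tiles.

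The median stellate tile had a lower ratio of 3.85 in library 1, not taken relative to the median gene. Single tiles with larger ratios are given as examples. The tile at chr1:60655001-60656000, 88735 bp from the start of Raph1, had 55 stellate fragments in 33 cells of library 1 and 18 fragments in library 2, with 2 and 1 in Kupffer and 1 and 1 in endothelial cells. The tile at chr9:116847001-116848000, inside Rbms3, had 55 and 27 stellate fragments against 1 and 0 Kupffer and 4 and 3 endothelial fragments. A tile inside Dennd1a, at chr2:38111001-38112000, had 49 and 31 against 0 and 0 and 3 and 4. Within the loci of the leading genes, the fullest tile of Gdf2 lay just upstream of its start (34 and 22 stellate fragments, 0 and 0 Kupffer, 0 and 4 endothelial), and that of Afap1l2 lay 34075 bp into the gene (30 and 13 against 2 and 1 and 1 and 0). These tiles were picked from the fullest after their values were seen.

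Between the libraries, 858 genes (9.41% of 9117 tested) were past 2-fold higher in stellate cells of library 2 and 437 (4.79%) lower, relative to the median gene. Genes of the rule, which chose the cells, were not left out of this comparison. With pile-ups masked the counts were 496 higher and 369 lower. Without centring, where the median gene stood at -0.26, they were 603 higher and 931 lower, so the balance of higher and lower turns with the centring. The 5 highest were Mei4, Spock2, Cdhr2, Gm28729 and Prss40, and single cells gave 92.4%, 60.9%, 97.6%, 85% and 100% of their fragments in library 2. The 5 lowest were Layn, Lipg, Igfbp3, Plac1 and Epor. Layn, a hyaluronan receptor, had 48 fragments from 26 cells in library 1 and 1 fragment in library 2 (60.3 and 1.47 CPM), whereas its Kupffer levels were 9.36 and 6.85 CPM. Lipg, endothelial lipase, had 60.3 and 2.94 CPM, and Igfbp3 47.7 CPM from 23 cells and 4.42 CPM from 3. Igfbp3 went the other way in Kupffer (2.39 and 12.3 CPM) and endothelial cells (6.12 and 9.84 CPM).

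By list, 0 of 19 stellate identity genes were past 2-fold higher and 2 lower in library 2, with a median log2 ratio of -0.51. The retinoid and lipid storage list had 0 higher and 3 lower of 13, with a median of -0.40, while the same list had a median of -0.39 in endothelial and 0.20 in Kupffer cells. Aldh1a1 was lower, with a log2 ratio of -2.07 (-2.91 to -1.38), from 37 cells in library 1 and 9 in library 2. In Kupffer cells the same ratio was 1.24, and in endothelial cells 1.74. Markers of the other classes had positive medians relative to the median gene. The endothelial list had 3 of 5 tested genes past 2-fold higher in stellate cells of library 2, and a median of 0.74 over its 14 genes. The Kupffer and macrophage list had 0 of 4, and a median of 0.47 over its 12 genes. The summed macrophage level hardly differed (271 and 283 CPM), and for both lists the intervals of the summed levels overlapped between libraries. The hepatocyte list, the share of fragments in peaks and the pile-ups differed between the libraries, as given above. The part of all these in the values was not tested. Genotype, library and depth cannot be told apart here.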

How the data were processed

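Single-nucleus ATAC libraries were processed with Cell Ranger ATAC 1.2.0, R 3.6.1 and Signac 0.2.4 on GRCm38.p5, per the submitters' processing notes, which give no order of steps. The authors deposited fragment positions and per-barcode counts of fragments, as raw counts without normalization. From these, fragments were counted over 21887 protein-coding genes with 2 kb on each side, summed by class and library and scaled to CPM. Kept cells held 9442369 fragments in library 1 and 12139227 in library 2. Genes with at least 20 fragments over both classes (40 over both libraries) were tested against 2-fold. Comparisons between classes left out 30 genes of the rule or overlapping it. The comparison between libraries did not leave them out. Python 3.11.15, numpy 2.4.6, pandas 2.3.3, numba 0.67.0 and scipy 1.17.1 were used, and the ratio was tested on simulated data. The simulated counts were independent Poisson draws per gene, without pile-ups or differences between cells, so the effect of these was not tested. With 1 library per group no p-value was computed. Possible doublets were marked from positions covered by more than 2 fragments (q of 0.01), without adjustment for depth or pile-ups, and kept.

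The cells, lists and tests were chosen with earlier results of these data known. Named genes are the 8 rule genes, the 3 largest and 2 smallest lower ratios of each list in library 1 with at least 10 stellate fragments, the 15 leading genes, and the 5 highest and 5 lowest of library 2 over library 1. Other genes were named for their role after their values were seen, and some genes that the rule names are not reported here. The 13 alternatives, 3 of them added after seeing the data, are given in the closing section. A class made from marker counts is a range of cells, not a fixed type.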

Additional observations from a re-analysis of the deposited data

How the results depend on the processing

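Of 74 lower ratios of named genes past 2-fold above both classes, between 63 (windows within 1 kb of the gene start) and 74 stayed past 2-fold in each of 13 alternatives, 3 of which (pile-ups masked, without the deepest cell, ratios not centred) were chosen after seeing the data. Scaling by fragments near starts changed no centred ratio by construction. No paired analysis was possible because each group is 1 library.

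The stellate share of library 1 was 7.18% in thinned cells and 4.26% with windows within 1 kb of the start. With those windows, fewer genes could be tested: 696 and 589 were more open than in Kupffer cells in library 1 and library 2, 1259 and 761 less, 395 and 434 more open than in endothelial cells, 493 and 618 less, 155 and 195 more open than in both, 195 and 236 less, and 27 higher and 40 lower in library 2 than in library 1. With no minimum of fragments, in the same order, the counts were 4941 and 4545 more than Kupffer, 3386 less in library 2, 4788 and 4107 more than endothelial, 2632 and 3152 less, 3110 and 2800 more than both, 1317 and 1767 less, and 3281 higher and 3029 lower between libraries. Counting insertions gave 1446 higher and 926 lower between libraries. Without centring 603 were higher and 931 lower in library 2, where the median gene stood at a log2 ratio of -0.26, and 0.09 when scaled by fragments near starts. Thinned cells gave 468 higher in library 2 and 827 more open than both in library 2, and masking pile-ups gave 496 higher.

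Among values past 2-fold, signs turned for Fgb in library 1 (-1.96 thinned, -1.91 within 1 kb, -2.07 without cells marked as doublets, -3.73 with pile-ups masked) and Cyp2e1 in library 1 (-0.69 within 1 kb). In library 2 they turned for Foxs1 (-0.036 within 1 kb), Kcnmb1 (-1.87 thinned), Igfbp3 (0.56 within 1 kb), Cyp2e1 (0.61 thinned, 1.16 without marked cells, 0.43 with pile-ups masked) and the hepatocyte list median (0.049 without marked cells). Between libraries they turned for Plac1 (0.066 within 1 kb) and Prss40 (-1.41 thinned, -1.60 without marked cells, -1.77 with pile-ups masked). Of the 72 named values short of 2-fold, 36 turned sign in at least 1 alternative, as did 11 of 23 such list medians, among them the hepatocyte list in library 1 (-1.06 within 1 kb) and the secreted, retinoid and portal fibroblast lists in library 2 (-0.040 not centred, 0.23 with pile-ups masked and 0.40 thinned). The cause was not tested. Against 12 of 19, the identity genes past 2-fold above both in library 2 were 9 of 16 thinned, 3 of 5 within 1 kb, 13 of 19 without the deepest cell and 14 of 19 with pile-ups masked. With 23 cells in library 2, genes with few fragments there have wide intervals.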
